A study of Mus musculus with 6 samples.

Results

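The oligodendrocyte lineage genes described here were 32 genes of oligodendrocyte precursors and of myelin, chosen by symbol from a list and not by their values, among 24411 genes in the count tables, and all 32 had a row there. They were measured by RNA-seq in primary microglia (PM), which came from pooled brains of neonatal ICR mice and were shaken off mixed glial cultures, with no sort of the cells. The paper measured their purity by flow cytometry for CD11b and reports that the cells were largely microglia. GSK-J4, an inhibitor of the H3K27 demethylase JMJD3, was given at 10 μM to all libraries, so that no library was untreated. The 3 libraries of the GSK-J4 group received nothing else, and the 3 libraries of the LPS + GSK-J4 group also received 10 ng/ml of LPS, the bacterial endotoxin recognized by TLR4, for 4-h. The comparison asked for the level of transcripts from oligodendrocyte lineage cells in cultures labelled as microglia, and whether it differed between the treatments.

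Oligodendrocytes wrap axons of the central nervous system in myelin and arise from proliferating precursors that carry the proteoglycan NG2 (Cspg4) and the PDGF receptor alpha (Pdgfra). The transcription factors Olig1, Olig2 and Sox10 act throughout the lineage, and Myrf switches on myelin genes as precursors differentiate. Mixed glial cultures of neonatal brain hold astrocytes and oligodendrocyte precursors below the microglia that are collected by shaking, and longer shaking of such cultures is a usual way to collect the precursors.

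Between 2597505 and 3472716 fragments were counted on genes per library, and levels are given in CPM (counts scaled to library size and by edgeR's TMM factors). The floor used, 3 counts, corresponded to 0.673 to 1.24 CPM by library on this scale and accounts for counting error alone. The ribosomal precursor Rn45s held 22.2 to 32.4% of the gene counts of the GSK-J4 libraries, against 45.8 to 48.1% with LPS. All 12 microglia markers passed the filter on low counts, and their summed level was 3668 to 3798 CPM in GSK-J4 and 3003 to 3022 CPM in LPS + GSK-J4. The summed level of the 32 oligodendrocyte lineage genes was 326, 364 and 357 CPM in GSK-J4 replicates 1, 2 and 3 and 534, 557 and 664 CPM in LPS + GSK-J4 replicates 1, 2 and 3. The groups did not overlap on this TMM scale. As a plain share of the counts on genes, without TMM, the 32 genes held between 0.0375 and 0.0542%, and the groups overlapped in this share.

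RNA-seq analysis revealed higher levels of 7 oligodendrocyte lineage genes in LPS + GSK-J4 than in GSK-J4 alone. They were the transcription factor gene Olig1, the precursor surface genes Cspg4 and Ptprz1, the early oligodendrocyte gene Bcas1 and the myelin genes Mbp, Mag and Cldn11. Here "rose" and "fell" refer to an adjusted p of at most 0.05 in edgeR's quasi-likelihood test, with Benjamini-Hochberg adjustment over all 10133 genes tested. By this rule 13.7% of all genes tested rose and 9.91% fell. None of the 32 genes fell, 0 were lower at an unadjusted p under 0.05 and 0 were lower in DESeq2. The stricter thresholds of the study (adjusted p up to 0.01, log2 fold change from 1.5) called 2.95% of all genes tested higher and 0.809% lower. They called 0 of the 32 genes in edgeR and in DESeq2. At an unadjusted p under 0.05 in edgeR, 9 of the 32 were higher, beside 1958 higher and 1573 lower of the 10133 genes tested. Nothing is read from that count, since the filter on low counts partly selected the tested genes for higher counts in LPS + GSK-J4. In bulk RNA, more cells of a type and more RNA per cell cannot be told apart.

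Of the 32 genes, 14 passed the filter on low counts and 18 did not. A gene with few counts in GSK-J4 could pass only through higher counts in LPS + GSK-J4, and 4 of the 14 (Lhfpl3, Bcas1, Cldn11 and Ugt8a) had under 10 counts in at least 1 GSK-J4 library. The test was therefore repeated on genes with at least 10 counts in every library, which 9 of the 32 reached, and 5 of these rose (Olig1, Cspg4, Ptprz1, Mbp and Mag), beside 13.7% of all genes with such counts. The median log2 fold change of the 9 genes was 0.83, beside 0.0006 over all genes with such counts. The groups did not overlap, with LPS + GSK-J4 higher, for 6 of the 9, as for 19.6% of those genes, and the opposite held for 0 of the 9, as for 19.1%. Over all 14 genes, which the filter partly selected for higher counts in LPS + GSK-J4, the groups did not overlap for 9, with LPS + GSK-J4 higher (19.8% of all genes tested), and nothing is read from that count.

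**Figure D1:**
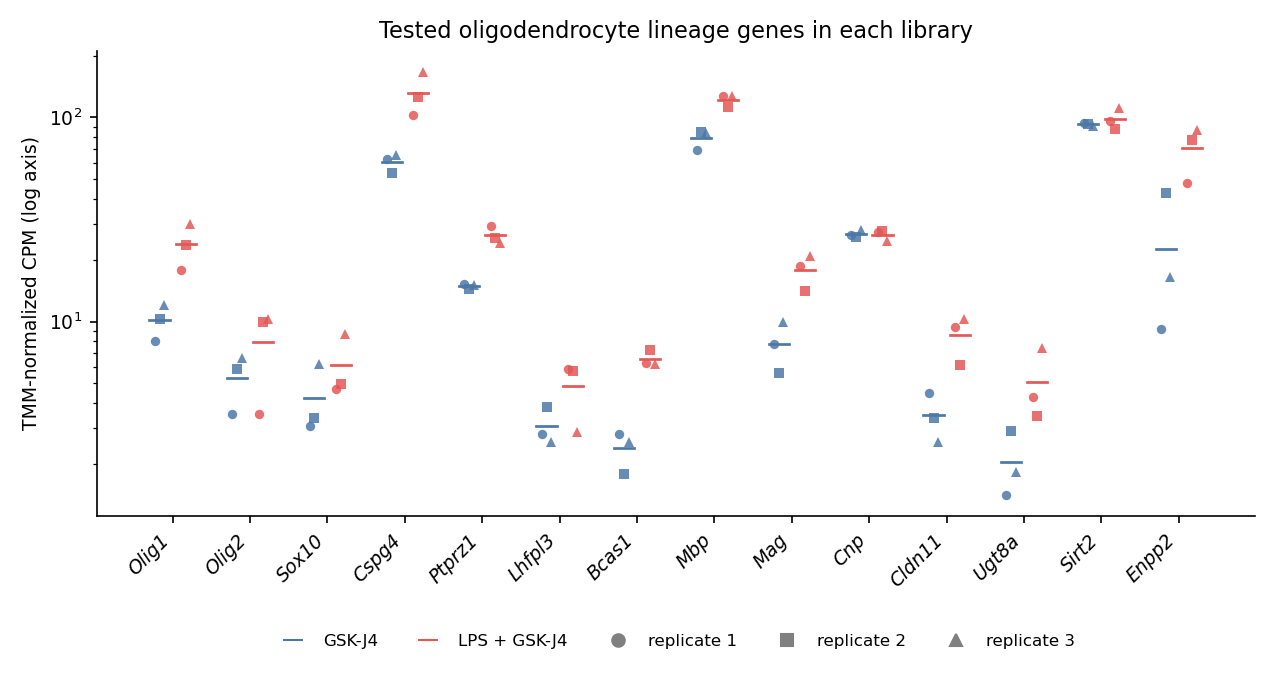
TMM-normalized CPM (log axis) of the 14 tested oligodendrocyte lineage genes, ordered by role, with 1 symbol per library and a line at the mean of each group. Levels of Olig1, Cspg4, Ptprz1, Bcas1, Mbp, Mag, Cldn11, Ugt8a and Enpp2 do not overlap between the groups, while those of Cnp and Sirt2 do.

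The start regions of a precursor gene that rose (Cspg4), a myelin gene that rose (Mag) and a myelin gene that did not pass the test (Cnp) are shown for comparison. Each window runs from 250 bases before to 50 bases after a RefSeq transcript start on GRCm38.p6, 5′ to 3′ on the strand of the gene, and capitals mark the letters ACAAAG or their reverse complement, the core of the SoxE motif that Sox10 recognizes.
Cspg4, chr9:56864854-56865153, plus strand: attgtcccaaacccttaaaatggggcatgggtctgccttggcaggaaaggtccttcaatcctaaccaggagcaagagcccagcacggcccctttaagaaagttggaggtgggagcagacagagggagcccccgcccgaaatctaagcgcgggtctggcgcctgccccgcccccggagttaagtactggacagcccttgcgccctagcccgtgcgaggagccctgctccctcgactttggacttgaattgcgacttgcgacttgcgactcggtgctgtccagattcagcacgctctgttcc
Mag, chr7:30914814-30915113, minus strand: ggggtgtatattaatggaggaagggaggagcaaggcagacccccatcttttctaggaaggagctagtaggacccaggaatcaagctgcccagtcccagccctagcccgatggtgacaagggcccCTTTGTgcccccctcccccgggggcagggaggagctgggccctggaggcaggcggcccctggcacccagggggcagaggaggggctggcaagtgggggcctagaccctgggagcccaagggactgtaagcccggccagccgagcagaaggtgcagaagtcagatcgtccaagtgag
Cnp, chr11:100574689-100574988, plus strand: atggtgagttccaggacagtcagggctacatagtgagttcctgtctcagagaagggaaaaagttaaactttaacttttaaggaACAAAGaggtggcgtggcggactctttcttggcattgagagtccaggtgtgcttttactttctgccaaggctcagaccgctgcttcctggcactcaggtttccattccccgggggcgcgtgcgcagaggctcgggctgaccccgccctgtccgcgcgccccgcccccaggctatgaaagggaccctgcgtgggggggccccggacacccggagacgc
The window shown for Mag held 1 match from base 125 and the Cnp window 1 match from base 84, whereas the Cspg4 window held 0. Mag had 3 windows for its RefSeq starts, of which the shown and an overlapping window held the same match and the other, which starts further into the gene, held 0. Promoter windows were at hand for 23 of the 32 genes (26 windows), and 6 of the 26 held ACAAAG on either strand, beside 18.7% of 32851 promoter windows of the genome. The E-box letters CAGCTG or CATCTG, which Olig2 and related factors bind, were in 7 of the 26, beside 30.6% of all windows. The motifs of NF-kB and of the interferon response element (ISRE), and the letters of AP-1 (TGANTCA) and CRE (TGACGTCA), were in 0 of the 26, beside 1.63, 3.44, 7.81 and 1.79% of all windows. The most matches to ACAAAG were in the window of Mobp, which held 6. These matches describe letters in a window, not sites that are bound.

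Among the 6 transcription factor genes, Olig1 rose and none fell (0 lower at an unadjusted p under 0.05, 0 in DESeq2). Olig1 (chromosome 16, 91269772 to 91271933 in mm10), which promotes differentiation and repair of myelin, was at 8.02, 10.3 and 12.1 CPM in GSK-J4 replicates 1, 2 and 3 and at 18.0, 23.7 and 30.1 CPM in LPS + GSK-J4 replicates 1, 2 and 3. Each LPS + GSK-J4 library was above all GSK-J4 libraries, with means of 10.1 ± 2.04 and 23.9 ± 6.10 CPM (SD, n = 3) and a log2 fold change of 1.25 (standard error 0.24, edgeR adjusted p = 0.00112). Its neighbour Olig2, which specifies the lineage and ends 41095 bp before the start of Olig1, was at 3.54, 5.84 and 6.60 CPM in GSK-J4 and 3.51, 9.92 and 10.3 CPM in LPS + GSK-J4. The lowest Olig2 level of all was in LPS + GSK-J4 replicate 1, so the groups overlapped (log2 fold change 0.59, standard error 0.38, edgeR adjusted p = 0.293). Counts of Olig1 per count of Olig2 were 1.77 to 2.27 in GSK-J4 and 2.38 to 5.11 in LPS + GSK-J4. Sox10, a SoxE factor that directly activates myelin genes, was at 3.07, 3.37 and 6.23 CPM in GSK-J4 and at 4.68, 4.96 and 8.67 CPM in LPS + GSK-J4. Replicate 3 was highest in both groups, and the groups overlapped (log2 fold change 0.59, standard error 0.38, edgeR adjusted p = 0.298). Sox8, a relative of Sox10, Nkx2-2, a homeobox factor of differentiating precursors, and Myrf did not pass the filter. Myrf had 4, 8 and 3 counts in GSK-J4 and 10, 2 and 10 in LPS + GSK-J4, with no separation of the groups. Nkx2-2 had at most 3 counts in any library, and Sox8 at most 6.

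Among the 5 precursor surface and matrix genes, Cspg4 and Ptprz1 rose and none fell (0 lower at an unadjusted p under 0.05, 0 in DESeq2). Cspg4 (chromosome 9, 56865033 to 56899870), which encodes the NG2 proteoglycan, was at 62.3, 53.2 and 65.3 CPM in GSK-J4 and at 103, 125 and 167 CPM in LPS + GSK-J4. The groups were well apart, with replicate 3 highest in each, and means of 60.2 ± 6.29 and 132 ± 32.6 CPM (SD, n = 3) gave a log2 fold change of 1.13 (standard error 0.17, edgeR adjusted p = 0.000115). Cspg4 is also a gene of pericytes, whose markers Rgs5 and Kcnj8 had 0 counts in every library, so that each was below 0.673 to 1.24 CPM, while Abcc9 and Notch3 together reached at most 1.91 CPM. Pdgfrb, a receptor gene of pericytes and fibroblasts, was at 19.3, 8.31 and 7.33 CPM in GSK-J4 and 6.63, 11.8 and 34.3 CPM in LPS + GSK-J4, and its groups overlapped. The part of pericytes in the Cspg4 level was not tested. Ptprz1 (chromosome 6, 22875502 to 23052916), a receptor tyrosine phosphatase of precursors that astrocytes also express, was at 15.3, 14.4 and 15.03 CPM in GSK-J4 and 29.3, 25.6 and 24.4 CPM in LPS + GSK-J4. Its libraries lay close together within each group (log2 fold change 0.82, standard error 0.18, edgeR adjusted p = 0.00379), and with library totals in place of TMM the call was lost (0.26, edgeR adjusted p = 0.32). Lhfpl3, a membrane protein gene enriched in precursors, was at 2.83, 3.82 and 2.57 CPM in GSK-J4 and 5.85, 5.72 and 2.89 CPM in LPS + GSK-J4. LPS + GSK-J4 replicate 3 lay within the range of GSK-J4, and the difference did not pass the test (log2 fold change 0.63, standard error 0.39, edgeR adjusted p = 0.271). Pdgfra, the receptor that drives precursor division, did not pass the filter, with 14, 7 and 6 counts in GSK-J4 and 8, 4 and 6 in LPS + GSK-J4. At 2.36 ± 0.877 and 2.38 ± 0.803 CPM (SD, n = 3), its means were nearly equal. Cspg5, a brain proteoglycan gene, was below the filter, with 1, 3 and 4 counts in GSK-J4 and 6, 10 and 8 in LPS + GSK-J4. Its groups did not overlap, and without the filter its log2 fold change was 2.04 (standard error 0.65, edgeR adjusted p = 0.0154; DESeq2 adjusted p = 0.0999).

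Of the 5 genes of committed precursors and newly formed oligodendrocytes, only Bcas1 passed the filter, and it rose. Bcas1 (chromosome 2, 170346991 to 170427845), which marks cells that begin to form myelin, had 12, 8 and 7 counts in GSK-J4 and 16, 19 and 15 in LPS + GSK-J4. At 2.40 ± 0.538 against 6.56 ± 0.596 CPM (SD, n = 3) the groups did not overlap, and the log2 fold change was 1.45 (standard error 0.35, edgeR adjusted p = 0.00671; DESeq2 adjusted p = 0.0572). Gpr17, a receptor found for a short time in committed precursors, had 2 counts in replicate 1 of each group and 0 in the other libraries. Its opposite strand held more fragments than its own, and its exons overlap those of Lims2, on that strand, by 188 bp. Enpp6, a choline phosphodiesterase gene of newly formed oligodendrocytes, had at most 4 counts in a library, and the zinc transporter gene Tmem163 at most 3. Neu4, a sialidase gene, had 0 counts in all 6 libraries, which allows at most 0.673 to 1.24 CPM per library.

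**Figure D2:**
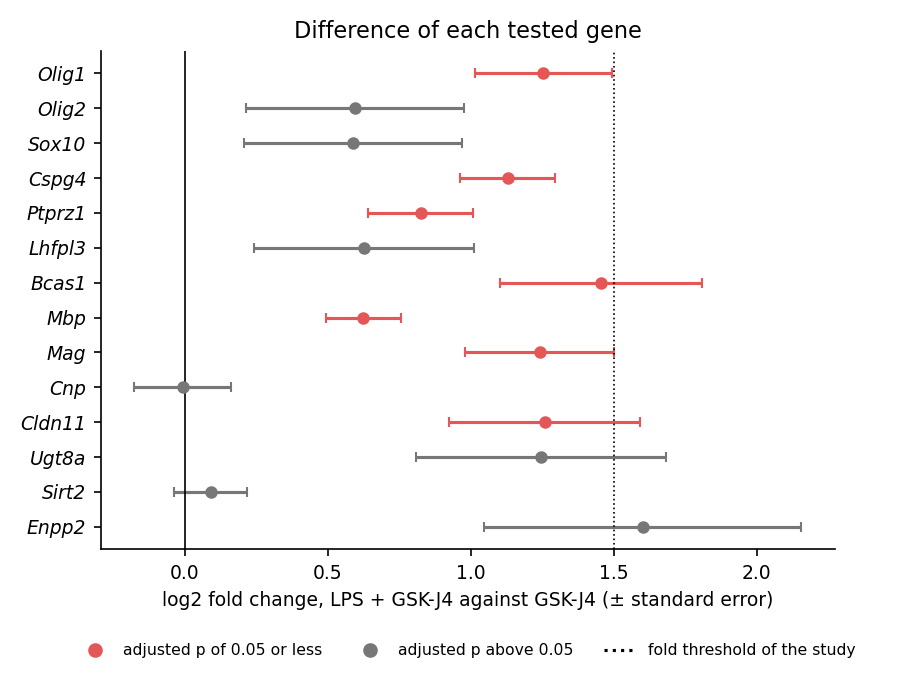
Log2 fold change of LPS + GSK-J4 against GSK-J4 for the 14 tested genes, with bars of 1 standard error either side, coloured by an edgeR adjusted p of at most 0.05 or above. The 7 genes that rose lie between 0.62 (Mbp) and 1.45 (Bcas1), below the dotted line at 1.5, and Cnp lies at -0.01.

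Of the 16 myelin and mature oligodendrocyte genes, Mbp, Mag and Cldn11 rose and none fell (0 lower at an unadjusted p under 0.05, 0 in DESeq2). Mbp (chromosome 18, 82475146 to 82585637), which encodes the protein that holds myelin layers together, was at 69.4, 84.8 and 83.6 CPM in GSK-J4 and at 127, 113 and 127 CPM in LPS + GSK-J4. It had at least 228 counts in every library, and its increase, with a log2 fold change of 0.62 (standard error 0.13, edgeR adjusted p = 0.00228), was the smallest of the 7. When counts were scaled by library totals in place of TMM, its log2 fold change was 0.06 (edgeR adjusted p = 0.752). Mag (chromosome 7, 30899176 to 30914873), a sialic acid-binding adhesion protein on the axon side of myelin, was at 7.79, 5.61 and 9.90 CPM in GSK-J4 and 18.7, 14.1 and 21.1 CPM in LPS + GSK-J4. Replicate 2 was lowest in both groups, the groups did not overlap, and the log2 fold change was 1.24 (standard error 0.26, edgeR adjusted p = 0.00238). Counts of Mag per count of Mbp were 0.0661 to 0.118 in GSK-J4 and 0.125 to 0.166 in LPS + GSK-J4. Cldn11 (chromosome 3, 31149920 to 31164324), the claudin of tight junctions in myelin, was at 4.48, 3.37 and 2.57 CPM in GSK-J4 and 9.37, 6.11 and 10.3 CPM in LPS + GSK-J4. The groups did not overlap, and the log2 fold change was 1.26 (standard error 0.33, edgeR adjusted p = 0.0121). Its adjusted p was 0.0618 in DESeq2 and 0.0677 in edgeR without replicate 3 of both groups.

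Ugt8a, which makes the myelin lipid galactosylceramide, was at 1.42, 2.92 and 1.83 CPM in GSK-J4 and 4.29, 3.43 and 7.43 CPM in LPS + GSK-J4. The groups did not overlap, but the difference just missed the threshold (log2 fold change 1.25, standard error 0.44, edgeR adjusted p = 0.0502), and its adjusted p ran from 0.0488 (without GSK-J4 replicate 2) to 0.225 (without LPS + GSK-J4 replicate 3) when single libraries were left out. It was 0.27 without replicate 3 of both groups and 0.193 in DESeq2. For a pair of abundant genes, Cnp and Sirt2, the difference did not pass the test. Cnp (chromosome 11, 100574904 to 100591729), a phosphodiesterase gene of non-compact myelin, was at 26.4, 26.0 and 28.2 CPM in GSK-J4 and 27.3, 27.9 and 24.8 CPM in LPS + GSK-J4 (log2 fold change -0.01, standard error 0.17, edgeR adjusted p = 0.979). Sirt2 (chromosome 7, 28766735 to 28788661), a deacetylase that many cell types express, was at 94.1, 92.5 and 90.9 CPM in GSK-J4 and 96.4, 88.1 and 111 CPM in LPS + GSK-J4 (log2 fold change 0.09, standard error 0.13, edgeR adjusted p = 0.673). Both had at least 60 counts in every library, and their groups overlapped.

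Enpp2 (chromosome 15, 54838901 to 54952892) encodes autotaxin, which makes lysophosphatidic acid and is expressed by oligodendrocytes and strongly by the choroid plexus. It was at 9.20, 42.4 and 16.5 CPM in GSK-J4 and at 47.6, 77.1 and 87.1 CPM in LPS + GSK-J4. The groups did not overlap, yet GSK-J4 replicate 2 was near the lowest LPS + GSK-J4 library, and the difference did not pass the test (log2 fold change 1.60, standard error 0.55, edgeR adjusted p = 0.0958). It passed without GSK-J4 replicate 2 (log2 fold change 2.498, edgeR adjusted p = 8.31e-06) and without GSK-J4 replicate 1 (1.20, edgeR adjusted p = 0.0166). Ttr, the transthyretin gene that defines the choroid plexus, was at 22.9, 223 and 99.4 CPM in GSK-J4 and 193, 372 and 435 CPM in LPS + GSK-J4, and its groups overlapped (log2 fold change 1.53, standard error 0.89, edgeR adjusted p = 0.316). Within each group both genes had the same order of libraries, and between 2.49 and 6.02 counts of Ttr were found per count of Enpp2. The part of choroid plexus cells in the Enpp2 level was not tested.

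**Figure D3:**
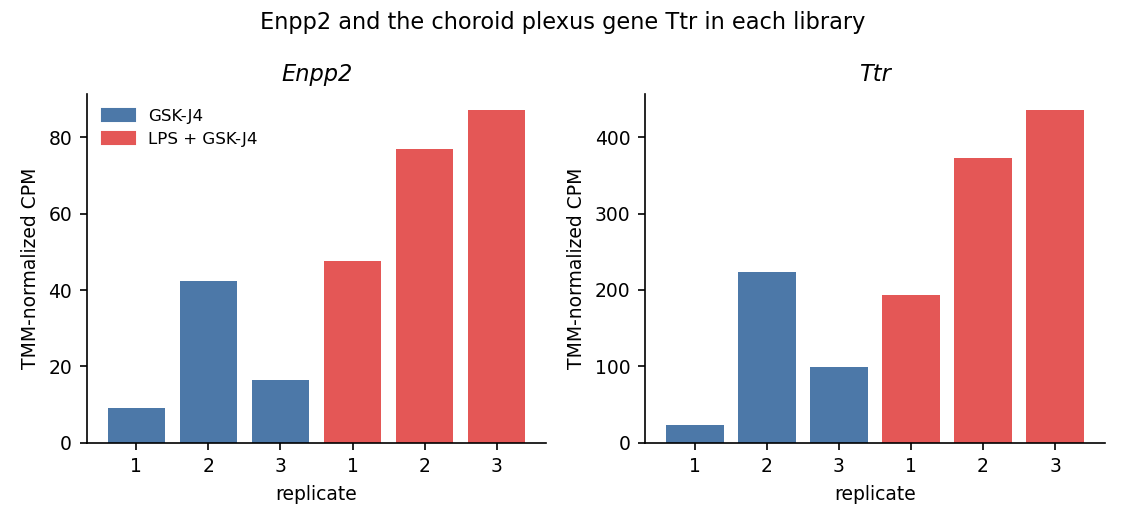
TMM-normalized CPM of Enpp2 (left) and of the choroid plexus gene Ttr (right) in each library, with bars from 0 and a separate axis for each gene. GSK-J4 replicate 2 has the highest bar of its group for both genes (42.4 and 223 CPM), and LPS + GSK-J4 replicate 3 the highest of all (87.1 and 435 CPM).

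The other 9 myelin genes did not pass the filter. Tspan2, a tetraspanin of the lineage, had 10, 10 and 5 counts in GSK-J4 and 18, 19 and 8 in LPS + GSK-J4. In CPM its groups did not overlap, and without the filter its log2 fold change was 1.37 (standard error 0.43, edgeR adjusted p = 0.0132; DESeq2 adjusted p = 0.0940). Mog, on the outer surface of myelin, had 5, 9 and 4 counts in GSK-J4 and 2, 12 and 3 in LPS + GSK-J4, and Mobp, a structural protein gene of compact myelin, 8, 3 and 3 and 10, 3 and 8. Both overlapped between the groups. Gpr37, a receptor gene, had at most 7 counts in a library and Mal, a myelin proteolipid gene, at most 8. Fa2h and Aspa, enzymes of myelin lipid and acetylaspartate metabolism, and Opalin and Ermn, genes of mature oligodendrocytes, had 0 counts in most libraries, and the highest count among them was 5, for Fa2h in LPS + GSK-J4 replicate 3. Over the 18 genes that were not tested, no library exceeded 19 counts or 7.25 CPM, and 6 genes never exceeded 3 counts. Their means were higher in LPS + GSK-J4 for 15, lower for 2 and 0 in all libraries for Neu4, differences that were mostly not detectable at this depth. Without the filter, the median log2 fold change over all 18016 genes was 0.12. The share of such low genes with a higher mean was not computed, so nothing is read from the count of 15.

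Per kilobase of exon, Sirt2 was the highest of the 32 genes in both groups (18.4 ± 0.319 CPM per kb without and 19.6 ± 2.31 with LPS, SD, n = 3), followed by Mbp (9.36 ± 1.02 and 14.4 ± 0.971). In GSK-J4, Cnp (7.39 ± 0.322 CPM per kb) came next, before Cspg4 (5.05 ± 0.527), Olig1 (4.69 ± 0.946) and Enpp2 (3.93 ± 3.02), which lay within their spread of each other. In LPS + GSK-J4, Enpp2 (12.2 ± 3.55), Olig1 (11.1 ± 2.82) and Cspg4 (11.0 ± 2.73) lay within their spread of each other, with means above that of Cnp (7.32 ± 0.452). For scale, the microglial receptor gene Csf1r was at a mean of 131 CPM per kb without and 95.1 with LPS. The 4 genes that define precursors (Pdgfra, Cspg4, Olig2 and Sox10) together had 64.0 to 80.3 CPM in GSK-J4 and 114 to 188 in LPS + GSK-J4, most of it from Cspg4. The 4 that define oligodendrocytes (Mbp, Mog, Mag and Mobp) had between 80.2 and 96.1 CPM and between 132 and 152 CPM, most of it from Mbp.

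A further 43 genes linked to the lineage were listed, of which 18 passed the filter, 8 rose and 2 fell (13.7 and 9.91% of all genes tested). Those that rose were the precursor factor Sox6, the matrix proteoglycan Vcan, the node adhesion molecule Nfasc, the membrane protein Plekhb1, the calcium channel subunit Cacng4, the adhesion molecule Dscam, the membrane protein Rtn4 (lower, at -0.13 on the log2 scale, with library totals) and Id4, an inhibitor of differentiation. Of these, Sox6, Plekhb1, Cacng4, Dscam and Id4 had under 10 counts in at least 1 GSK-J4 library. Such genes passed the filter only through counts in LPS + GSK-J4 libraries. Nothing is therefore read from the count of 8 or from the median over the 18 genes. Vcan went from 24.0 ± 8.06 to 47.4 ± 6.11 CPM (SD, n = 3; log2 fold change 0.97, standard error 0.21, edgeR adjusted p = 0.00297). Plekhb1, Dscam and Id4, with log2 fold changes of 1.57, 1.58 and 1.97, also passed the thresholds of the study in edgeR. In DESeq2, the authors' tool, their adjusted p of 0.013, 0.0196 and 0.0117 was above the 0.01 of those thresholds. Id2, which restrains precursor differentiation and is highly expressed in these cultures, fell from 601 ± 55.2 to 338 ± 50.1 CPM (log2 fold change -0.83, standard error 0.13, edgeR adjusted p = 0.000147). Itpr2, a calcium release channel gene, fell from 58.0 ± 6.57 to 43.0 ± 1.67 CPM (log2 fold change -0.43, standard error 0.15, edgeR adjusted p = 0.0445). The calls of 5 of these genes were lost without single libraries. The edgeR adjusted p of Sox6 was then up to 0.0884 (without LPS + GSK-J4 replicate 2, and 0.0553 without GSK-J4 replicate 1), and that of Rtn4 0.0508 (without LPS + GSK-J4 replicate 2). That of Nfasc was 0.127, 0.0660 and 0.0846 without GSK-J4 replicate 1, GSK-J4 replicate 2 and LPS + GSK-J4 replicate 2. For Cacng4 it was 0.188 and 0.0921 without GSK-J4 replicate 1 and 3 and 0.0693 and 0.227 without LPS + GSK-J4 replicate 1 and 2. For Itpr2 it was 0.189 and 0.103 without GSK-J4 replicate 2 and 3 and 0.0710 and 0.144 without LPS + GSK-J4 replicate 1 and 2. In DESeq2 5 of the 18 rose and 1 fell, with an adjusted p of 0.0609 for Sox6, 0.114 for Nfasc, 0.181 for Cacng4 and 0.0654 for Itpr2. With library totals the calls of Vcan (log2 fold change 0.40, edgeR adjusted p = 0.144), Sox6 (0.87, 0.0622), Nfasc (0.46, 0.211) and Cacng4 (0.78, 0.155) were lost as well. The median log2 fold change of the 18 genes was 0.63, and several of these genes, Rtn4, Id2 and Itpr2 among them, are expressed by many cell types.

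The summed levels of astrocyte and neuron markers were also higher in LPS + GSK-J4, and that of microglia markers was lower. The summed level of 10 astrocyte markers was 56.6 to 62.0 CPM in GSK-J4 and 139 to 164 CPM in LPS + GSK-J4. Of the 8 tested, 4 rose (Gfap, Aqp4, Gja1 and Fgfr3). The call of Fgfr3 was lost without replicate 1 of GSK-J4 or of LPS + GSK-J4 (edgeR adjusted p = 0.107 and 0.126). Slc1a2, Slc1a3 and Aldoc were higher without passing the test (edgeR adjusted p = 0.0546, 0.26 and 0.0657). Aldh1l1 was lower, also without passing (log2 fold change -0.16, edgeR adjusted p = 0.864). Gja1, the main connexin of astrocytes, went from 20.7 ± 3.97 to 53.0 ± 5.97 CPM (SD, n = 3; log2 fold change 1.38, edgeR adjusted p = 3.44e-05). For 8 neuron markers the sums were between 12.3 and 14.8 CPM and between 34.3 and 39.8 CPM, and all 3 tested (Stmn2, Tubb3 and Gad1) rose. The others were not tested and had means of at most 1.07 CPM. With LPS the means of Rbfox3, Syt1 and Slc17a7 were lower and those of Snap25 and Slc17a6 higher. Fgfr3 and Gad1 had under 10 counts in at least 1 GSK-J4 library and passed the filter only through counts in LPS + GSK-J4 libraries. Nothing is therefore read from the counts of astrocyte and neuron markers that rose. Over all genes tested, 13.7% rose and 9.91% fell. Among the 12 microglia markers 4 fell (Cx3cr1, Csf1r, Trem2 and Fcrls), with log2 fold changes between -0.48 and -0.44 (Fcrls at edgeR adjusted p = 0.0540 without GSK-J4 replicate 2), and 0 rose (0 higher at an unadjusted p under 0.05, 0 in DESeq2). Relative to the mean of the GSK-J4 libraries, the LPS + GSK-J4 libraries were at 1.53, 1.60 and 1.90 for the 32 oligodendrocyte lineage genes, at 2.35, 2.66 and 2.79 for astrocyte markers, at 2.96, 2.78 and 2.55 for neuron markers and at 0.812, 0.809 and 0.807 for microglia markers. The part of cell composition in the differences of the oligodendrocyte lineage genes was not tested.

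**Figure D4:**
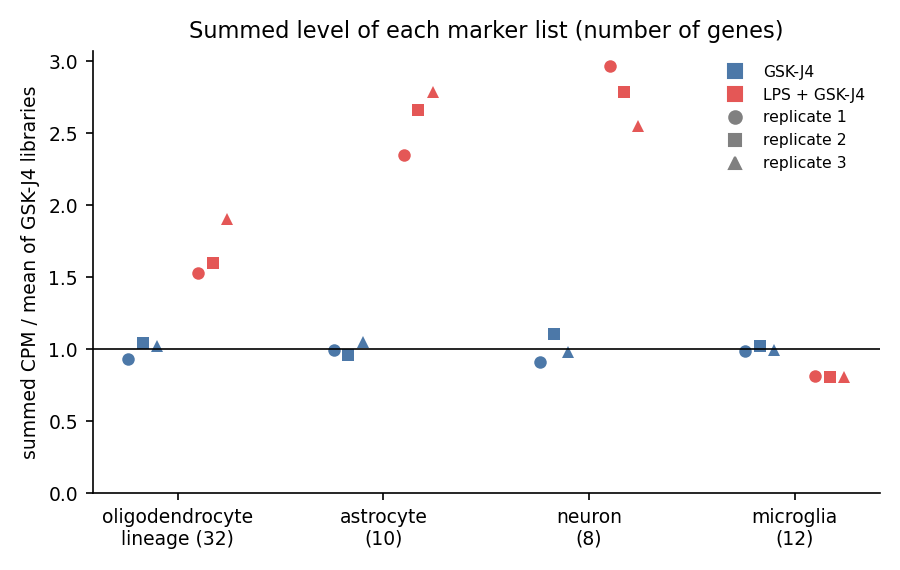
Summed CPM of the 32 oligodendrocyte lineage genes and of 10 astrocyte, 8 neuron and 12 microglia markers in each library, divided by the mean of the 3 GSK-J4 libraries, with a line at 1. The LPS + GSK-J4 libraries lie above all GSK-J4 libraries for the first 3 lists (from 1.53 for oligodendrocyte lineage genes to 2.96 for neuron markers) and below them for microglia markers, at about 0.81.

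Rn45s took a larger share of LPS + GSK-J4, and the calls and the sizes of the changes depended on the scaling. TMM sets the log2 fold change of most genes near 0, whereas division by library totals alone moved the median of all genes to -0.57. On that scale 5.65% of all genes tested rose and 49.5% fell. Olig1, Cspg4 and Mag rose and Cnp and Sirt2 fell by 0.57 and 0.48 on the log2 scale (edgeR adjusted p = 0.0229 and 0.0216). Bcas1 and Cldn11 did not pass the test (log2 fold change 0.89 and 0.68, edgeR adjusted p = 0.0558 and 0.106). The log2 fold change was positive for 12 of the 14 tested genes, compared with 13 under TMM, and the gene whose sign changed was Sirt2. Under TMM it was positive for 5062 of all 10133 genes tested. Nothing is read from these numbers, since the filter partly selected the 14 genes and no such share was computed with library totals. With Rn45s and other ribosomal features left out, library totals without TMM gave 7 genes that rose and 0 that fell. On that scale 13.7% of all 9821 genes tested rose and 11.2% fell.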

How the data were processed

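RNA-seq libraries of PM treated with GSK-J4 (3) or LPS + GSK-J4 (3) were analysed. According to the submitters' processing notes the authors used CASAVA 1.8.2, Trimmomatic 0.33, STAR 2.5.1 and mm10, and they deposited raw counts of fragments per gene, without normalization, in 3 columns per library. The reverse-strand column was used, which fits the directional kit, and 4 leading lines per table, which tally fragments outside genes, were dropped. The annotation used for counting is not given in the sources used here. STAR counts only uniquely mapped fragments that overlap 1 gene, so fragments shared between near-identical or overlapping genes are missing.

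The tests ran under R (version 4.3.3) in edgeR (version 4.0.16, which calls limma 3.58.1). Genes were kept by filterByExpr (minimum count 10, minimum total 15), scaled by TMM and tested by robust quasi-likelihood without covariates, with Benjamini-Hochberg adjustment over all genes tested. A common biological coefficient of variation of 0.133 was estimated. The authors' tool, DESeq2 (here 1.42.0), was an alternative. Tested on simulated data of 3 libraries against 3 with 10133 genes, edgeR recovered 69 of 100 genes changed by a log2 fold change of 1 and 93 of 100 changed by 2, with 11 false calls. Python 3.11.15 (pandas 2.3.3, numpy 2.4.6, matplotlib 3.10.9, scipy 1.17.1) was used for tables and plots. Errors are SD over 3 libraries. The study's methods describe the libraries as independent biological replicates. The labels do not say whether these came from separate pools of mice, and the p values measure the spread between these libraries. No libraries of a group were identical (chi-square per degree of freedom of 2.12 to 12.5), and 3 libraries against 3 allow no exact permutation p below 0.1.

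All 32 genes are reported, in order of role, and further lineage genes are named where their adjusted p was at most 0.05. The 32 genes, the 43 further genes, the marker lists (microglia, astrocyte, neuron, fibroblast and meningeal, pericyte, endothelial, choroid plexus, ependymal, Schwann and erythroid) and the motifs were chosen with earlier results of these data known, and no set test was run. Another listed gene is not reported here. Gene positions and exon lengths are from GENCODE M21 (mm10), and promoter sequences are from RefSeq on GRCm38.p6. Alternatives were the unstranded column, DESeq2 and its size factors, other filters and thresholds, a replicate block, leaving out libraries or ribosomal features, and a fit without robust estimation. Scaling by library totals, with and without ribosomal features, was added after the data were seen.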

Additional observations from a re-analysis of the deposited data

Results flagged for a closer look

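Fragments on the strand opposite to a gene were read from the same-strand column, which no comparison used and whose share of all gene fragments was 0.966 to 1.38% by library. For Gpr17 this column held 16 fragments over the 6 libraries (8, 2 and 3 in the GSK-J4 libraries, and 0, 2 and 1 in those with LPS), against 4 on its own strand. This is 80.0% of both strands (95% Wilson interval 58.4 to 91.9%, for counting error only), above the share in the libraries. For Myrf it held 7 fragments against 37 on its own strand, or 15.9% (95% Wilson interval 7.93 to 29.4%). Both genes were too low to be tested for a difference between the groups.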

How the results depend on the processing

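The number of genes that rose was 7 to 9 when libraries were left out (9.66 to 14.1% of all genes tested). Without replicate 3 of both groups Cldn11 was lost and Tspan2 gained, and 6 of the 7 genes were shared. It was 8 with unstranded counts (13.9%), 5 in DESeq2 (8.62%), 9 without a filter on low counts (8.78%), 9 without robust estimation (13.8%) and 6 at an adjusted p up to 0.01. With library totals without TMM, 3 rose and 2 fell (5.65 and 49.5%). Under the thresholds of the study the number of genes called higher was 0 to 1 when libraries were left out (Enpp2 without GSK-J4 replicate 2, Tspan2 without LPS + GSK-J4 replicate 3), 1 with unstranded counts (Bcas1), 1 without robust estimation (Enpp2) and 5 when the adjusted p was relaxed to 0.05 and the log2 fold change to 1. The number called lower was 0 throughout. Shares over all genes were not computed for these alternatives under the thresholds of the study, nor for the adjusted p up to 0.01. When libraries were left out, the log2 fold change of Cnp ran from -0.0411 to 0.0810 and that of Sirt2 from -0.00807 to 0.16, with changes of sign without replicate 3 of one or both groups, and with library totals without TMM that of Sirt2 was -0.48 and that of Rtn4 -0.13. The cause of these changes was not tested, except that library totals moved the median of all genes by construction. With a replicate block in the model 8 genes rose (Ugt8a was added; 17.3% of all genes rose). The numbers were not taken as pairs, since the labels do not say what libraries with the same number share. Deviations of libraries with the same number had an r of -0.0102, 0.117 and 0.295 for replicates 1, 2 and 3. For unlike numbers r ran from -0.290 to 0.243, so that of replicate 3 was the highest. Within each group, replicate 3 also differed most from the other libraries by chi-square per degree of freedom. These values were 12.2 and 12.5 against 2.12 in GSK-J4, and 5.81 and 5.88 against 2.32 in LPS + GSK-J4. A shared effect of replicate 3 was not tested. Depth limits the genes at or below about 1 CPM, where 3 counts is the floor.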

Other observations

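The 6 fibroblast and meningeal markers summed to 80.1 to 281 CPM in GSK-J4 and 138 to 427 CPM in LPS + GSK-J4, and 0 passed the edgeR test (1 higher at an unadjusted p under 0.05, 0 in DESeq2). Of the endothelial markers, Cdh5 went from 12.3 ± 2.78 to 35.2 ± 18.7 CPM (SD, n = 3; log2 fold change 1.504, edgeR adjusted p = 0.00312), while Cldn5 had 0 counts in every library. The choroid plexus markers summed to 32.8 to 231 CPM in GSK-J4 and 201 to 455 CPM in LPS + GSK-J4, and 0 of the 2 tested passed in edgeR (0 at an unadjusted p under 0.05). Of all 6 listed, 1 rose in DESeq2, and this was not Ttr. The Schwann cell list summed to 344 to 383 CPM in GSK-J4 and 348 to 432 CPM in LPS + GSK-J4, mostly from Pmp22 (347 ± 19.2 and 323 ± 40.2 CPM, SD, n = 3), and of its 2 tested genes Egr2, which is also an early response gene of myeloid cells, rose (log2 fold change 1.86, edgeR adjusted p = 8.15e-07). The ependymal marker tested did not pass, and the 3 erythroid markers had 0 counts in every library.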
